A study of Homo sapiens with 1 sample.

Results

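The first introns of protein-coding genes were examined for accessible chromatin in 786-O cells, an established line of human clear cell renal cell carcinoma, that carried an empty vector. The assay was ATAC-seq, which tags open DNA with adapters through the Tn5 transposase, and the data were the peak list of 1 library without a replicate. A peak was counted when its summit, the position of highest read pileup, lay on chromosomes 1 to 22 in the first intron of the canonical transcript of a protein-coding gene and more than 1 kb from every annotated transcription start site (TSS). Of the 88676 listed peaks, 86239 lay on these chromosomes and 9205 of those met the rule. The study set this library beside one of cells that overexpressed DPF3a, which is not analysed here, so the comparisons below are between positions within 1 library and no p-value is given. Intervals are 95% intervals of counting error.

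The first intron is removed from the pre-mRNA at the splice nearest to the promoter, and it is on average the longest intron of a gene. In many genes it carries enhancers, alternative promoters and other regulatory DNA. Open sites of this kind are bound by sequence-specific factors such as AP-1 (dimers of FOS and JUN proteins), RUNX and TEAD, whereas CTCF, an architectural protein, marks loop anchors and insulators. The 786-O line lacks functional VHL, the ubiquitin ligase subunit that targets HIF proteins, and depends on HIF-2α, the product of EPAS1. In these data the canonical promoters of EPAS1 and of the renal factor genes PAX8 and PAX2 had a summit within 1 kb of the TSS, whereas that of HNF4A had none.

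The sequences below are taken from the forward strand of hg38, reach 30 bases to each side of a summit and show which motifs lie in these peaks. The first 4 hold an AP-1 site (TGACTCA or its complement, in capitals) and come from peaks with folds from 102 down to 11.3. They lie in MYOF at chr10:93458962-93459022, in TRIO at chr5:14268442-14268502, in PARD3 at chr10:34758592-34758652 and in TGFBR2, the type II TGF-β receptor gene, at chr3:30612028-30612088. The next 2 hold a RUNX site (TGTGGTT or its complement) and, in KCNIP4, also a TEAD site (GGAATG or its complement). They lie in ESYT2 at chr7:158818690-158818750 and in KCNIP4 at chr4:21451190-21451250. The last 2 hold a CTCF core, a pattern in which some bases vary. They lie in PTPN3 at chr9:109484057-109484117 and in OR2A14 at chr7:144127905-144127965. All 8 lie in introns and overlap no annotated exon.
MYOF: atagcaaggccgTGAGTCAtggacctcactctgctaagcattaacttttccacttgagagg
TRIO: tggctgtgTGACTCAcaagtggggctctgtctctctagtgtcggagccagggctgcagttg
PARD3: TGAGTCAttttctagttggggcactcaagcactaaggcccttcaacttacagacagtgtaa
TGFBR2: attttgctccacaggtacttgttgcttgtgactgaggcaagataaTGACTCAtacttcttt
ESYT2: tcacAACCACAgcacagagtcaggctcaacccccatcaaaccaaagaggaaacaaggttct
KCNIP4: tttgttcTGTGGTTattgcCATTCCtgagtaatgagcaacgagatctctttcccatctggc
PTPN3: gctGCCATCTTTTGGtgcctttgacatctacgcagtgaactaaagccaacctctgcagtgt
OR2A14: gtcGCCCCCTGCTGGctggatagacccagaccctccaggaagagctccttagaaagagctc

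First introns held more accessible sites per base than the other introns of the same genes. Density was 40.7 peaks per Mb in first introns (39.9 to 41.5), counted over 226.3 Mb of eligible bases, that is, bases more than 1 kb from every TSS. In genes with more than 1 intron it was 40.9 per Mb (8823 peaks) in the first introns and 27.2 per Mb (26.8 to 27.6, 19481 peaks) in the later ones. The ratio of these densities was 1.50 (1.47 to 1.54). Intergenic DNA had 22.1 per Mb, so first introns exceeded it by a ratio of 1.84 (1.79 to 1.88), and DNA within 1 kb of a TSS had 100.5 per Mb. First introns thus held 14.0% of all peaks more than 1 kb from a TSS on 8.86% of such bases. Density declined from the first to the fourth intron. It was 32.0 per Mb in intron 2, 28.9 in intron 3, 26.3 in intron 4, 26.8 in introns 5 to 9 and 23.8 in introns 10 and on, while last introns had 28.3. The first intron exceeded the adjacent intron 2 by a ratio of 1.28 (1.23 to 1.32). A few bases are first intron of a gene and later intron of another, and 235 peaks in them were counted in both classes.

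First introns lie nearer to the promoter than later introns, so density was compared at equal distance from the gene's own TSS. In first introns it declined with distance, whereas in later introns it was highest near the TSS, stood at 28.9 to 29.4 per Mb from 5 to 100 kb and was lower beyond. First introns were denser in every distance class up to 100 kb. From 1 to 2 kb the densities were 77.3 per Mb in first and 46.7 per Mb in later introns, a ratio of 1.65 (1.32 to 2.08). From 10 to 20 kb they were 42.0 and 29.0 per Mb, a ratio of 1.45 (1.35 to 1.56). From 50 to 100 kb they were 36.6 and 29.3 per Mb, a ratio of 1.25 (1.17 to 1.33). Beyond 100 kb they were 25.6 and 24.9 per Mb, and the ratio of 1.03 had an interval that included 1 (0.961 to 1.10). The ratio combined over the 7 distance classes by the Mantel-Haenszel method was 1.33 (1.29 to 1.36), below the unmatched 1.50. At any 1 distance from its TSS a gene has at most 1 intron, so the matched comparison is between genes. It is tied to the length of the first intron, whose part was not tested. Some genes with later introns have no eligible first-intron base. Without those genes the matched ratio was 1.32 (1.28 to 1.36).

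**Figure D1:**
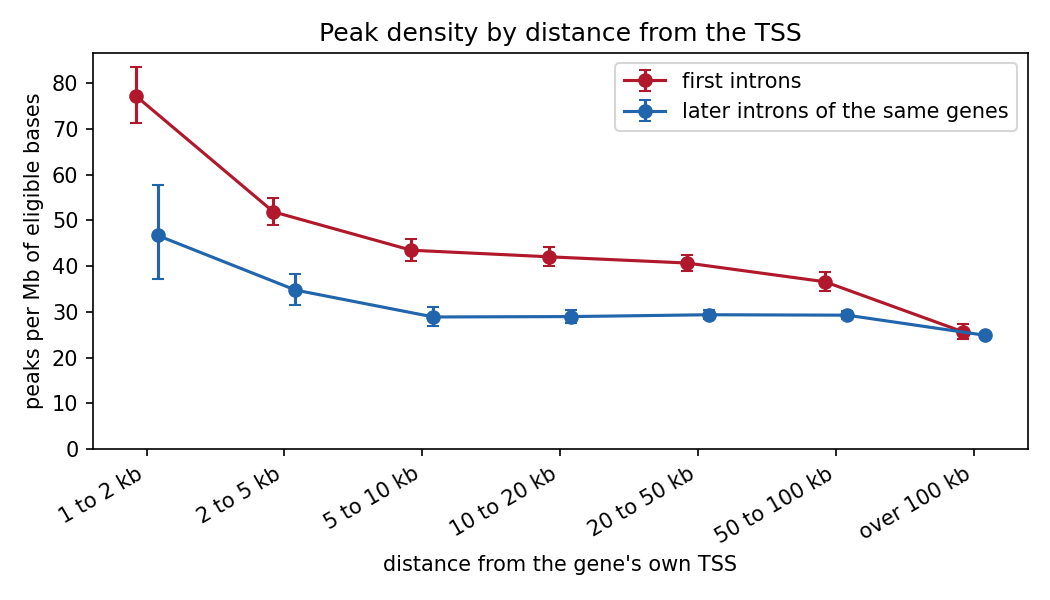
Peaks per Mb of eligible bases (vertical axis) by distance from the gene's own TSS (horizontal axis, 7 classes) in first introns (red) and later introns of the same genes (blue); bars are 95% Poisson intervals. The red points lie above the blue ones up to 100 kb, and at over 100 kb the values of 25.6 and 24.9 have overlapping intervals.

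The excess of first over later introns was larger in genes whose promoter was open. A promoter was called open when a summit lay within 1 kb of the canonical TSS, which was so for 8086 of the 12723 genes with eligible first-intron bases. The 1 kb rule keeps those promoter summits out of the first-intron peaks. First introns had 49.3 peaks per Mb (48.2 to 50.5) behind an open promoter and 25.7 per Mb (24.6 to 26.8) behind one that was not open, a ratio of 1.92 (1.83 to 2.01). Later introns differed less, with 29.7 and 22.7 per Mb. The ratio of first to later introns was 1.66 (1.61 to 1.71) with an open promoter and 1.13 (1.08 to 1.19) without one. Matched on distance, it was 1.49 (1.45 to 1.54) with an open promoter and 0.980 (0.927 to 1.04) without one. These intervals do not overlap. When only genes with eligible first-intron bases entered, they were 1.52 (1.47 to 1.58) and 0.941 (0.887 to 0.9996), the latter interval lying just below 1. With a score above 200 the ratio without an open promoter was 1.04 (0.951 to 1.14). Median fold enrichment did not separate the classes, being 9.79 in first-intron peaks of both kinds of gene.

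Promoter state and intron length vary together, so the classes were also compared within length classes. With an open promoter, density ran from 59.0 per Mb in first introns with under 5 kb of eligible bases to 41.0 per Mb in those with over 100 kb. Without one it was 27.7 per Mb in the shortest class, 35.8 per Mb from 5 to 10 kb and 15.2 per Mb (13.9 to 16.5) over 100 kb. Genes with an open promoter had the higher density in each of the 6 length classes, and the ratio matched on length was 1.83 (1.74 to 1.92). Peaks in the first introns of overlapping genes can count in both promoter classes.

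**Figure D2:**
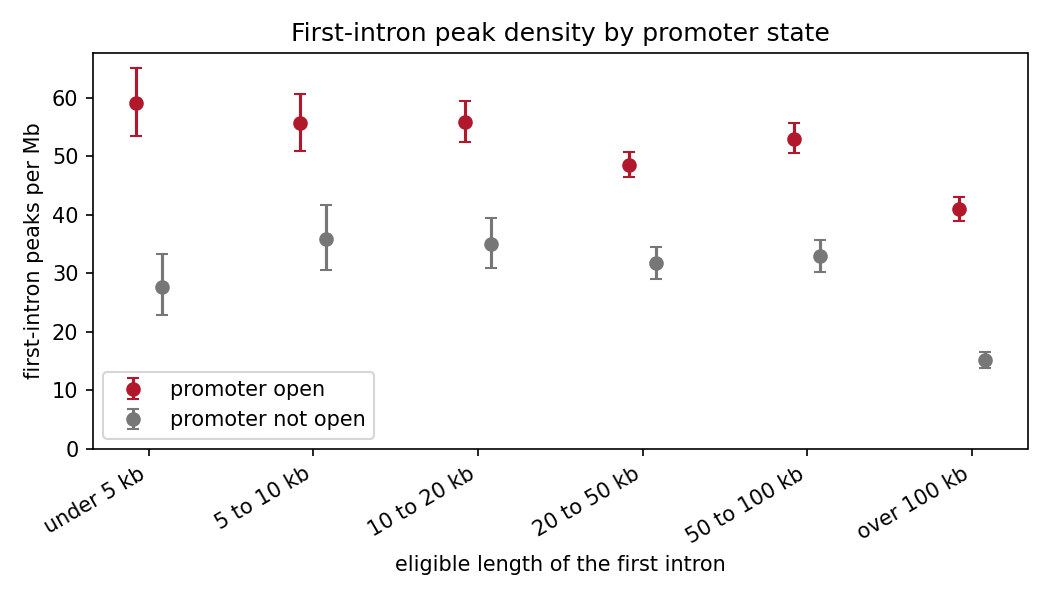
First-intron peaks per Mb (vertical axis) by eligible length of the first intron (horizontal axis, 6 classes) for genes whose canonical promoter held a summit (red) or held none (grey); bars are 95% Poisson intervals. The red points lie above the grey ones in every class, and at over 100 kb the values are 41.0 and 15.2.

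The 22 chromosomes served to show the spread of these ratios, since no replicate could. The ratio of first to later introns was above 1 on 22 of 22 chromosomes, with an interval above 1 on 21, and ranged from 1.10 (0.916 to 1.31) on chromosome 18 to 1.97 on chromosome 22. Matched on distance it was above 1 on 21 of 22. Split by promoter state, the matched ratio was above 1 on 22 of 22 chromosomes for genes with an open promoter, with a median of 1.47 and a range of 1.19 to 2.12. For the other genes it was above 1 on 9 of 22, with a median of 0.953 and a range of 0.591 to 1.27. The ratio was higher with an open promoter than without one on 22 of 22 chromosomes. Both classes of intron were compared here within the same chromosome. Copy number, which changes pileups, can differ between and within chromosomes in this line. It was not measured, and its part in these ratios was not tested.

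**Figure D3:**
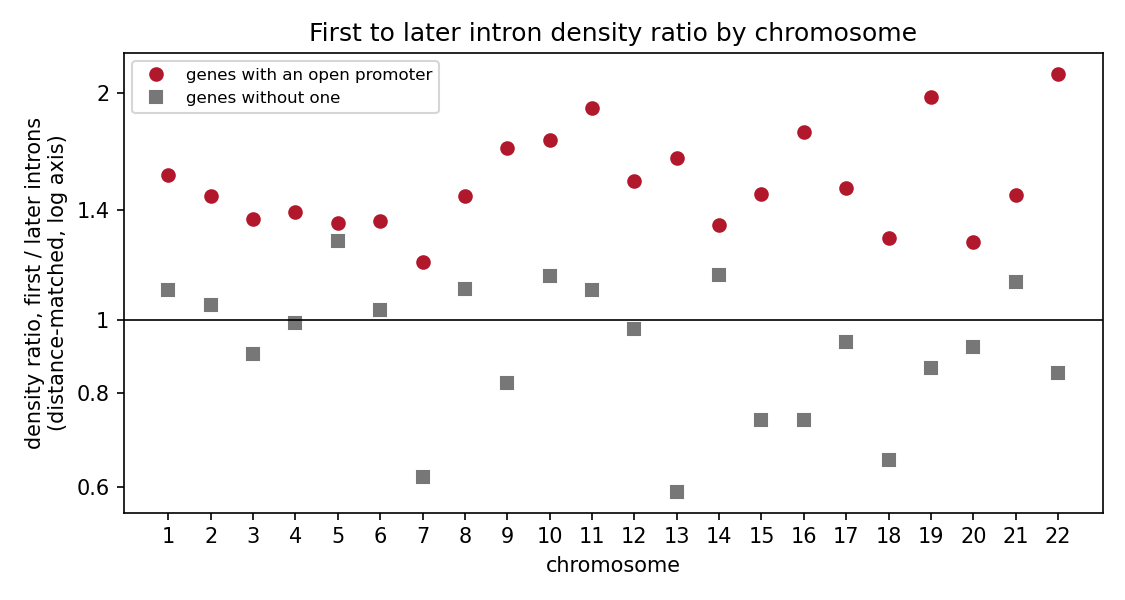
Ratio of peak density in first to later introns, matched on distance from the TSS (vertical axis, log scale), on each of the 22 chromosomes (horizontal axis) for genes with an open promoter (red circles) and without one (grey squares); the line marks 1. Every red circle lies above 1 and above the grey square of its chromosome.

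First-intron peaks had folds close to those of later-intron peaks, with touching intervals of the medians, and lower folds than promoter peaks. The fold enrichment of a peak is its summit pileup plus 1 over the genome-wide background pileup plus 1. Its median was 9.79 in first introns (9.28 to 9.79), 9.28 in later introns (9.28 to 9.79), 9.79 in intergenic DNA and 17.0 within 1 kb of a TSS. Median widths were 508, 472, 473 and 867 bp in the same order. Of the first-intron peaks, 39.8% had a pileup under 15, and for such peaks the fold is known only to within wide limits. At the 1 kb limit of the rule, the 164 peaks up to 100 bp inside it had a median fold of 8.24 and the 197 up to 100 bp outside it one of 7.73. Of the first-intron summits, 1.34% (1.11 to 1.59) lay in an exon of any transcript, which makes up 1.17% of the same bases, and 5.43% (4.98 to 5.91) lay in a lncRNA gene, which makes up 5.81%.

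The 10 peaks of highest fold lay in 9 genes, 5 of which are on chromosome 7. The strongest, in ESYT2, which encodes a tether between endoplasmic reticulum and plasma membrane, had a fold of 144 (127 to 162) at 10.8 kb from the TSS, and AP-1, RUNX and TEAD sites lay within 50 bp of its summit. MYOF, the myoferlin gene of membrane repair, followed with 102 (87.9 to 117) at 23.3 kb. TMEM178B had the same fold of 102 at 84.7 kb. TRIO, a guanine nucleotide exchange factor, held 2 of the 10, with folds of 99.4 at 47.1 kb and 98.9 at 125.1 kb. The other 5 lay in NXNL2 (fold 99.4), ERICH3 (95.3), CUX1, a homeobox factor gene (90.7), DOCK4, an activator of Rac (90.7), and EGFR (88.6). Their intervals overlapped one another except that of ESYT2, which overlapped none of the rest. The EGFR summit lay 113.9 kb from the TSS in an intron of 122.9 kb.

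At least 1 first-intron peak was present in 3747 of the 12723 genes with eligible bases, 29.5% (28.7 to 30.3). Of these, 1936 genes had 1 peak, 1332 had 2 to 4, 362 had 5 to 9 and 117 had 10 or more. The last group held 18.3% of all first-intron peaks on 8.30% of the bases. The share of genes with a peak followed the length of the intron. It was 8.01% under 5 kb of eligible bases, 27.0% from 5 to 10 kb, 42.0% from 10 to 20 kb, 59.8% from 20 to 50 kb, 77.3% from 50 to 100 kb and 82.6% above. The median peak lay 18.5 kb from its own TSS, with quartiles of 6.26 and 46.6 kb. Neighbours within an intron were a median of 5.54 kb apart. In the 3776 genes with at least 10 kb of eligible bases in both classes, the first intron was the denser in 1647 and the later introns in 1422, while 707 had no peak in either. The first intron was thus the denser in 53.7% of the genes in which the classes differed. Median eligible lengths in the 3776 genes were unequal, 28.5 kb in first introns and 54.1 kb in later introns. The part of these lengths in the share was not tested.

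EXT1, a polymerase of heparan sulfate, had the most first-intron peaks, 62 in 270.2 kb of eligible bases (229.5 per Mb). Its strongest peak had a fold of 80.9, and 2 peaks lay in 34.4 kb of its later introns (58.2 per Mb). TRIO followed with 51 in 123.0 kb (414.6 per Mb), against 32 in 200.8 kb of later introns. ROR1, a receptor tyrosine kinase-like protein of Wnt signalling, had 33, CMIP 30, CMSS1 28 and EFNA5, an ephrin ligand, 26. KIRREL3, an adhesion molecule, had 25, and the potassium channel gene KCNMA1, the adhesion molecule gene NTM and the polarity gene PARD3 had 24 each. EFNA5 was the only one of these 10 genes without an open canonical promoter. All 10 have over 100 kb of eligible bases, a class in which 233 of 409 genes had an open promoter. Across these introns strong and weak peaks were mixed. The 51 peaks of TRIO had folds from 5.15 to 99.4 with a median of 7.21, and the 62 of EXT1 had a median of 10.0.

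**Figure D4:**
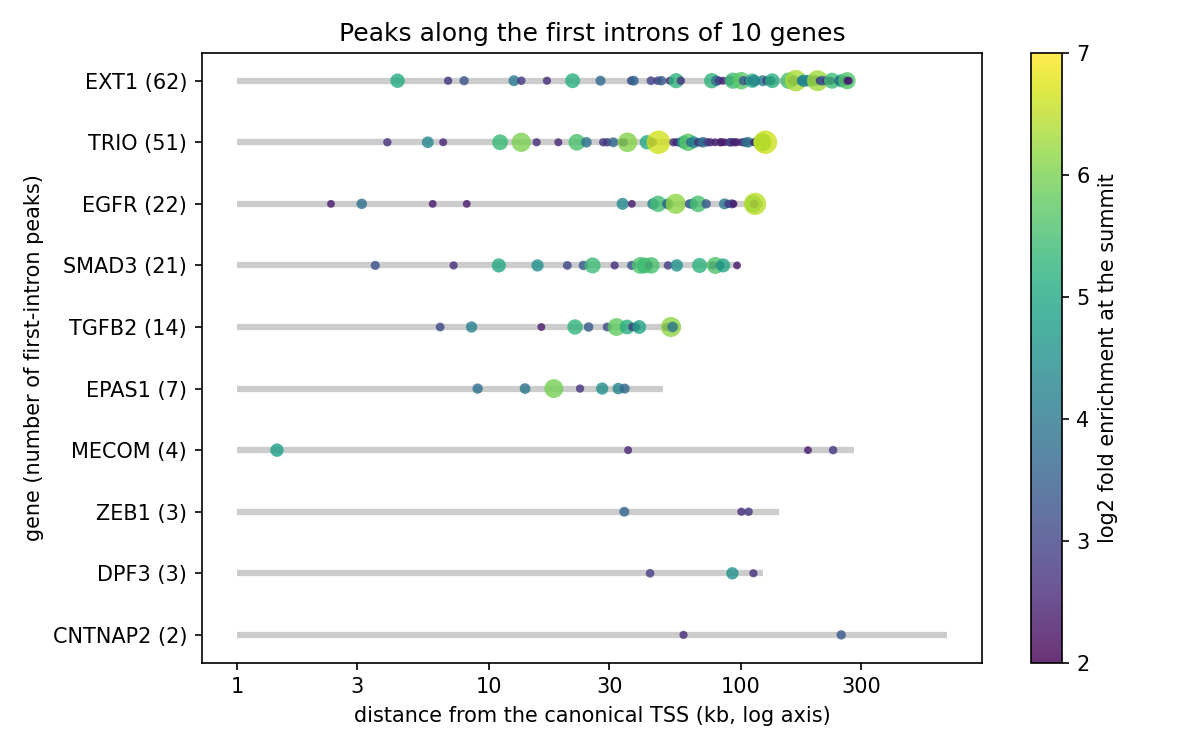
Positions of first-intron peaks by distance from the canonical TSS (horizontal axis, kb, log scale) in 10 genes (vertical axis, number of peaks in brackets); grey bars are the introns, and the colour and size of a point give its fold at the summit. EXT1 and TRIO carry 62 and 51 peaks, DPF3 and CNTNAP2 3 and 2.

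Among genes picked after their values were seen, the densest first introns with at least 5 peaks were those of NDRG1 (5 peaks in 6.86 kb) and SLC2A1 (7 in 10.8 kb), both known hypoxia targets. At the other end, 71 of the 409 first introns with over 100 kb of eligible bases had no peak. The longest of them were those of PTPRT (296.8 kb), DLGAP1 (295.7 kb) and KCTD8 (271.4 kb), genes known for their expression in neurons. The canonical promoter of KCTD8 was open, whereas those of PTPRT and DLGAP1 were not. Later introns had 34.7 peaks per Mb in DLGAP1 and 3.77 per Mb in PTPRT.

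Gene lists that fit this cell type and the study were read against the 29.5% of all genes with a peak and the density of 40.7 per Mb. Among the genes of oxygen sensing and hypoxia response, 10 of 13 with eligible bases had a first-intron peak, at 134.9 per Mb, which is 3.32 times (2.37 to 4.64) the density over all genes. Their median eligible length was 17.1 kb, and among all genes of 10 to 20 kb the share with a peak was 42.0%. All 13 had an open promoter, a class with 55.8 per Mb in genes of that length, and their later introns were dense as well, with 103.7 per Mb against 27.2 over all genes. The median fold of the 34 peaks was 7.21, against 9.79 over all first-intron peaks. EPAS1 had 7 peaks, with folds of 13.9, 15.5, 62.3, 6.70, 22.2, 19.1 and 12.9 in order from the TSS, and none in its later introns. EGLN1, an oxygen-sensing prolyl hydroxylase, had 6, up to a fold of 41.2, and its paralogue EGLN3 had 3. The glucose transporter gene SLC2A1 had 7, up to 17.0. VHL, ARNT and PFKFB4 had none, and CA9 and VEGFA had no eligible first-intron bases. An AP-1 site lay near none of the 34 summits of this list, against 17.3% of all first-intron summits. An approximate upper limit for the share, not an exact interval, was 8.82%. Several of these summits share an intron, so this limit may be too low.

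In the TGF-β signalling list 8 of 18 genes had a peak, at 113.8 per Mb, a ratio of 2.80 (2.16 to 3.63) to all genes, with a median eligible length of 20.4 kb and a median fold of 9.28. The share of genes with a peak was 44.4%, below the 59.8% of all genes with 20 to 50 kb of eligible bases. An open promoter was present in 17 of the 18, and their later introns had 45.9 per Mb. AP-1 sites lay at 12.3% of the summits. Most of the 57 peaks lay in few genes. SMAD3, a receptor-activated SMAD, had 21, of which 8 had a fold over 30 and the strongest one of 49.0 at 79.2 kb. The ligand gene TGFB2 had 14, 5 of them over 30, with the strongest of 70.6 at 52.7 kb. The ubiquitin ligase genes SMURF1 and SMURF2 had 10 and 6. TGFBR2 had 2, SKI, a repressor of SMADs, had 2, and SMAD6 and LTBP2 had 1 each. The receptor gene TGFBR1 and the SMAD genes SMAD2 and SMAD4 had none in 20.6, 27.5 and 14.3 kb.

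Genes of adhesion, the cytoskeleton and receptor kinases had a peak in 22 of 24 cases, at 112.8 per Mb, a ratio of 2.77 (2.35 to 3.28), with a median eligible length of 35.4 kb and a median fold of 12.4. Among all genes of 20 to 50 kb the share with a peak was 59.8%, and 63.9% with an open promoter, which 21 of the 24 had. Their later introns were also dense, with 60.5 per Mb. EGFR had 22, of which 5 had a fold over 30. ACTN4, an actin cross-linker, had 15, and PTK2, focal adhesion kinase, had 11. ITGA5 and NRP1 were the 2 genes with none, in 4.16 and 2.5 kb. Of the 139 summits of the list, 7.19% had an AP-1 site within 50 bp, against 17.3% of all first-intron summits.

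Genes with long introns and known neuronal roles had many bases and few peaks. A peak was present in 15 of 18, but the density was 14.4 per Mb (11.8 to 17.4), a ratio of 0.354 (0.292 to 0.429) to all genes, and 8 of the 18 had an open promoter. Their median eligible length was 337.0 kb. Among all genes with over 100 kb the share with a peak was 82.6%, close to the 83.3% of the list, and the density was 29.1 per Mb, or 15.2 without an open promoter. AP-1 sites lay at 21.0% of the summits. CNTNAP2 had 2 peaks in 651.0 kb and DPP10 had 1 in 846.4 kb. NTM had the most peaks of the list, 24 (46.3 per Mb), followed by KCNIP4 with 14 in 1043 kb (13.4 per Mb), while CTNNA2 with 8 peaks had the highest density, 63.5 per Mb. Their later introns had 13.1 per Mb.

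The remaining lists held at most 10 first-intron peaks each, on 0.0698 to 0.383 Mb of eligible bases. The study's cell movement genes had 10 peaks in 4 of 5 genes at 33.6 per Mb (16.1 to 61.7), of which MMP16 had 5, ZEB1 3, and COL6A3 and WNT7B 1 each, and 2 of the 10 had an AP-1 site. Subunits of the SWI/SNF remodelling complex had 9 peaks in 4 of 14 genes at 36.2 per Mb (16.5 to 68.6), in DPF3 (3), ARID1A (3), ARID1B (2) and PHF10 (1), and 13 of the 14 had an open promoter. Renal lineage factor genes had 8 peaks in 3 of 12 genes at 20.9 per Mb (9.03 to 41.2), of which MECOM had 4 and HNF4A 3. The genes of AP-1, RUNX, TEAD and NFI factors and their co-activators had 6 peaks in 5 of 12 genes at 85.9 per Mb (31.5 to 187.1) on 0.0698 Mb. The ratio of this last density to that of all genes was 2.11 (0.949 to 4.70). Median eligible lengths were 22.8, 5.18, 2.89 and 3.48 kb in the order of these lists. The shares of genes with a peak were 80%, 28.6%, 25% and 41.7%. Among all genes of the matching length classes they were 59.8%, 27.0%, 8.01% and 8.01%. In RUNX1, RUNX2, TEAD1 and WWTR1 the canonical first intron is under 1 kb long and had no eligible base, and 21, 7, 26 and 22 peaks lay in their later introns. For such genes the rule cannot find a member, whatever their accessibility.

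DPF3, the SWI/SNF subunit that the study overexpressed, has a canonical first intron of 122.2 kb at chr14:72771894-72894056 on the reverse strand. It held 3 peaks. The strongest, at 92.5 kb from the TSS (chr14:72801248-72802054), had a fold of 22.7 (16.6 to 30.4). The others had folds of 7.73 (4.46 to 12.6) at 43.6 kb and 6.18 (3.34 to 10.7) at 112.2 kb, and their intervals overlapped. An SP/KLF site lay within 50 bp of the 43.6 kb summit, and no searched motif lay near the other two. The density of 25.9 per Mb was below the 43.7 per Mb of its later introns, but it rests on 3 peaks.

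Motifs were searched on both strands in the 101-bp window around each summit. Those whose letters are given were searched as exact letters. The CTCF core was a pattern with bases that vary at some positions, as the PTPN3 and OR2A14 stretches above show. AP-1 was the most frequent of the 12 motifs at first-intron summits. It lay in 17.3% of the first-intron windows (16.5 to 18.1), in 18.0% of the later-intron windows and in 18.6% of the intergenic ones. The ratio of first to later introns was 0.963, with an interval that included 1 (0.913 to 1.02). In wider windows the interval lay just below 1, at 0.952 (0.916 to 0.990) within 100 bp and 0.956 (0.926 to 0.987) within 250 bp, and matched on distance the ratio was 1.01 (0.954 to 1.08). Promoter windows had 7.13%, and windows of the same width 1 kb beside the first-intron summits had 1.35%, a ratio of 12.8 (11.2 to 14.8). A permuted control (TAGCACT) had 1.05% at the summits and 1.25% beside them. The share of first-intron peaks with an AP-1 site rose with the fold, from 12.0% of the 1841 weakest to 23.8% of the 1841 strongest. The rise was not particular to AP-1. Between the same groups RUNX rose from 3.80% to 7.66%, TEAD from 8.69% to 13.3% and the hypoxia response element core from 11.6% to 15.2%. CTCF fell from 1.68% to 0.598%, and the other motifs changed by fewer percentage points. Peaks with an AP-1 site had a median fold of 11.9 (11.3 to 12.4) and those without it 9.28. With a RUNX or TEAD site the medians were 11.3 and 10.8. Near the TSS the AP-1 site was less frequent, in 11.2% (8.93 to 13.9) of the peaks at 1 to 2 kb and 17.8% (16.2 to 19.4) of those at 20 to 50 kb.

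RUNX sites lay in 5.78% of the first-intron windows and 6.47% of the later-intron ones, a ratio of 0.894 (0.810 to 0.986) that became 0.981 (0.879 to 1.09) when matched on distance. TEAD sites, whose 6 letters are common by composition, lay in 10.6% and 10.3%, against 5.70% beside the first-intron summits. SP/KLF sites (GGGCGGGG) lay in 0.565% of the first-intron windows, against 9.07% of promoter windows. The ratio of first to later introns for this motif was 0.933 (0.674 to 1.29), and 0.524 (0.375 to 0.732) when matched on distance, with a lower share in first introns in 7 of 7 distance classes, on 52 first-intron peaks in all. ETS sites (CCGGAAG) lay in 0.608%, against 4.46% at promoters. NF-Y sites (GATTGGC) lay in 0.739% and FOX sites (TGTTTAC) in 1.65%, against 0.642% and 1.65% in later introns, with overlapping intervals. E-boxes (CAGCTG) lay in 7.10% and 7.15%, and the core of the hypoxia response element (ACGTG or GCGTG), which is short and common, in 13.0% and 13.1%. The NF1 palindrome lay in 2 first-intron windows. Median GC content of the windows was 47.5% in both classes of intron and 61.4% at promoters.

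CTCF sites also differed between first and later introns, a comparison chosen after the shares were seen. A CTCF core lay within 50 bp of 153 first-intron summits, 1.66% (1.41 to 1.94), and of 715 later-intron summits, 3.67% (3.41 to 3.94). The ratio was 0.453 (0.381 to 0.538), and 0.458 (0.382 to 0.550) when matched on distance. The share was lower in first introns in 7 of 7 distance classes and on 22 of 22 chromosomes. Intergenic summits had 4.08%. The ratio depended on the window. Within 25 bp of the summit, where 48 first-intron peaks had the core, it was 0.752 and its interval included 1 (0.542 to 1.05), whereas within 100 and 250 bp it was 0.486 (0.423 to 0.559) and 0.535 (0.475 to 0.604). Per Mb, peaks with the core were sparser in first introns, 0.658 against 0.997, a ratio of 0.660 (0.551 to 0.790), while peaks without it were denser, a ratio of 1.54 (1.50 to 1.58).

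The letters themselves differed less than the peaks. The CTCF core occurred 8.86 times per Mb of eligible first-intron bases and 9.87 times per Mb of later-intron bases. A summit lay within 50 bp of 8.38% (7.21 to 9.68) of these occurrences in first introns and of 11.1% (10.3 to 11.8) in later introns. For AP-1 the order was the opposite, with a summit near 4.80% (4.58 to 5.02) of its occurrences in first introns and 3.49% (3.38 to 3.60) in later introns. First-intron peaks with a CTCF core were weaker than the rest, with a median fold of 8.24 (7.73 to 8.76) against 9.79, and narrower, with a median width of 375 against 511 bp. They made up 1.38% (1.12 to 1.68) of the peaks in genes with an open promoter and 2.63% (1.99 to 3.41) of those in genes without one. The strongest CTCF examples are those printed above from PTPN3 (fold 43.8) and OR2A14 (23.2), which were chosen after their values were seen.

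**Figure D5:**
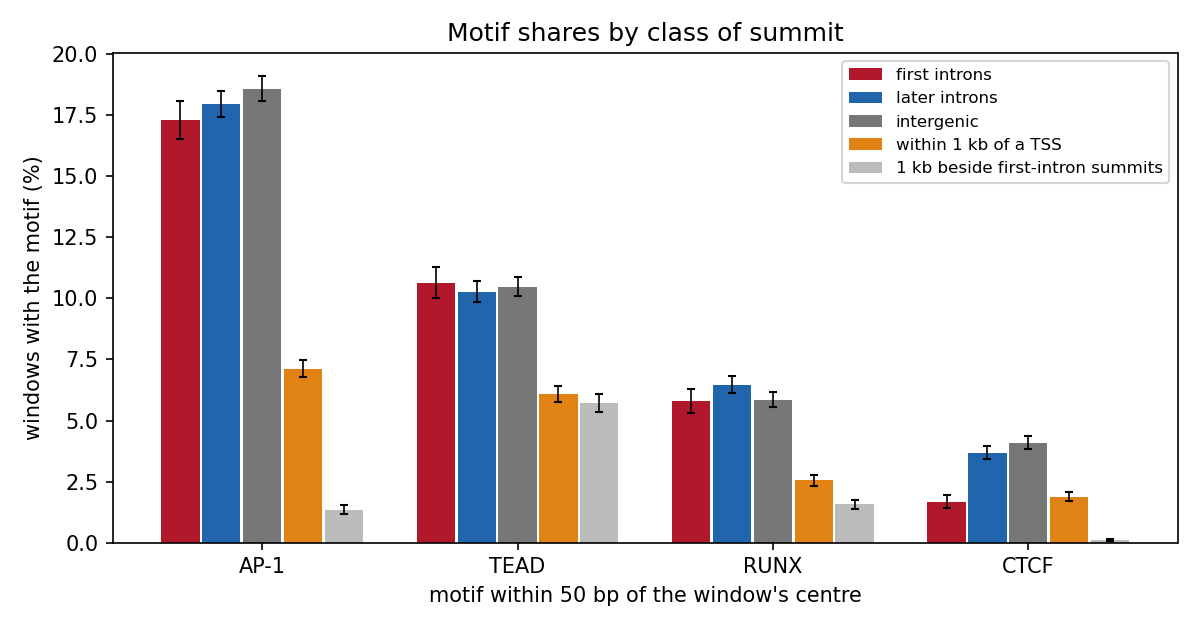
Share of 101-bp windows with an AP-1, TEAD, RUNX or CTCF motif (vertical axis, percent) around summits in first introns (red), later introns (blue), intergenic DNA (dark grey) and within 1 kb of a TSS (orange), and around points 1 kb beside first-intron summits (light grey); bars start at 0 and error bars are exact binomial 95% intervals. For AP-1 and TEAD the red and blue bars have overlapping intervals, whereas for CTCF they stand at 1.66% and 3.67%.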

How the data were processed

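The labels name 1 sample, an ATAC-seq library of 786-O cells with an empty vector. The authors used fastp to trim the paired reads and Bowtie2 2.3.4.3 to align them to hg38, removed mitochondrial, low-quality and duplicate reads and called peaks with MACS2 2.2.6 against a genome-wide background, per the study's methods and the submitters' processing notes; a Tn5 shift is not stated. The deposited ratio is the fold enrichment at the summit. The deposited −log10 p-value, −log10 q-value and score follow from the same pileup (9 to 300, over a background of 0.941). Pileups give the depth behind each peak; total reads are unknown. The lowest score was 52.

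Introns were those of Ensembl canonical transcripts of GENCODE release 44. Densities and pileups carry Poisson intervals, shares exact (Clopper-Pearson) ones, medians order-statistic ones and ratios log-normal ones. A list share without any case carries an approximate upper limit instead. Lists of 152 genes in 8 groups were used, and 12 motifs; a first permuted control that shared letters with the AP-1 site was replaced after its values were seen (ACTCATG, 3.48% at summits and 1.17% beside them). The text names the 10 peaks of highest fold, the 10 genes with most peaks, list genes with most or no peaks and every DPF3 peak. Some genes and a motif that this rule would name are not reported here. The members and lists were chosen with earlier results of these data known. Python 3.11.15, numpy 2.4.6, pandas 2.3.3 and scipy 1.17.1 were used, and the functions were tested on simulated data. Alternatives are given in the closing section.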

Additional observations from a re-analysis of the deposited data

Results flagged for a closer look

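The X chromosome lay outside the rule, and is named here because its first introns, which enter none of the comparisons, also held peaks. By the same rule they had 236 summits in 10.1 Mb of eligible bases, which is 23.4 per Mb (20.5 to 26.6). Its later introns had 12.8 per Mb (11.6 to 14.2). Both densities were below the autosomal values of 40.7 and 27.2, and the order of the classes of intron was the same. The median fold of these X-linked first-intron peaks was 9.28.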

How the results depend on the processing

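The ratios of first to later introns in density over all genes stayed above 1 under each alternative run. With a score above 100 or 200 the first-intron peaks numbered 5929 and 3796, and 22.3% and 16.1% of genes had one; with more than 5 kb from every TSS there were 5731. The share of genes was 32.1% at over 2.5 kb from every TSS, 35.2% at over 5 kb (fewer, longer introns enter) and 28.6% without chromosomes 5, 7 and 8. The density ratio of first to later introns moved from 1.50 to 1.55 with a score above 200, to 1.44 and 1.43 at over 2.5 and 5 kb, and to 1.66 in genes with an open promoter. The ratio matched on distance moved from 1.33 to 1.37 and 1.41 with a score above 100 and 200 and to 1.49 with an open promoter. The cause was not tested. The ratio of median folds (1.0 to 1.06) and the AP-1 ratio (0.925 to 1.0) moved little under the alternatives run, but the interval of the AP-1 ratio excluded 1 within 100 bp of the summit and in genes with an open promoter (0.934, 0.877 to 0.994). The alternatives on the CTCF ratio, on promoter state and on the genes compared were added after the data were seen; without an open promoter the matched ratio ran from 0.941 to 1.04, on both sides of 1. The alternative without repeat-masked bases was not run, because the reference used carries no masking. No paired analysis was possible because there is 1 library.

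With 1 library, none of the differences has a replicate check, and the intervals cover counting error only. Neighbouring peaks are not independent, since 22.6% of the gaps between neighbours in an intron were under 2 kb, so intervals of densities are too narrow. The listed peaks start at a score of 52, above the stated threshold of the peak caller, so weaker sites are not in the list, and a pileup under 15 lies behind 39.8% of the first-intron peaks. Copy number was not measured, and fold values follow it. The canonical transcript need not be the one used in these cells, which would put some peaks in another intron class.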
